A study of Homo sapiens with 54 samples.

Results

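The 2 relapsed states of an LNCaP xenograft study were compared: 15 tumours that had regrown under enzalutamide (ENZR) against 10 tumours that had regrown after castration alone (CRPC). These 25 tumours are part of 54, each from its own mouse and each placed by its sample group label. LNCaP is a human prostate cancer cell line that responds to androgen, here its clone FGC, implanted in immunodeficient NOD-SCID mice. All 25 mice were surgically castrated. Serum PSA served as the clock of relapse: a tumour counted as CRPC when PSA, having dropped with castration, stood again where it was before surgery. In the ENZR arm the first climb of PSA after surgery was answered with oral enzalutamide (10 mg/kg on 5 days a week), and relapse was the return of PSA to its starting point for that drug, with dosing still under way. A large tumour ended the experiment earlier in either arm. The ENZR state therefore differs from CRPC in drug exposure at harvest, in time since castration and in the PSA level that marked relapse, and these cannot be told apart. The male mice were 5 to 6 weeks old when they were obtained, their age at harvest is not given in the sources used here, and 1 cell line stands behind every tumour. The other 29 tumours were 9 before castration (PRE-CX), 8 soon after castration (POST-CX) and 12 responding to enzalutamide (ENZS). They entered the filter on low values and the estimate of the spread, so a gene that is low in both relapsed groups could be tested, and their medians are given for a few genes.

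The androgen receptor is a nuclear receptor that binds testosterone and dihydrotestosterone, moves to the nucleus and switches on genes such as KLK3, which encodes prostate-specific antigen (PSA). Castration removes testicular androgen. Enzalutamide occupies the hormone-binding pocket of the receptor and blocks its activity. Prostate tumours can regrow after either step, with the receptor active again or with growth carried by other routes, among them the glucocorticoid receptor, whose DNA-binding domain recognises many of the same sites.

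Expression was given as TPM over human genes, a unit scaled for transcript length and library size. The deposited values of a tumour summed to less than 1000000, and the human total was 92.1% ± 5.63 of that (SD, n = 10) in CRPC and 81.3% ± 20.9 (SD, n = 15) in ENZR. It ranged from 77.1% to 97% in CRPC and from 12.2% to 94.9% in ENZR, where mouse 87 was lowest. The means differed by -10.8 percentage points, which did not pass a two-sided permutation test (permutation p = 0.0876), and without mouse 87 by -5.84 points (permutation p = 0.0754). Mouse 87 and POST-CX mouse 91 (27.9%) were the 2 tumours under 30%, and results without tumours of very low human total leave out both. Each tumour was rescaled to 1000000 before testing. The labelled cell type was checked against its markers: FOXA1, HOXB13, KRT8, KRT18, EPCAM and CDH1 were at 39.3 TPM or more in all 25 tumours, and none of these 6 genes passed the test between the groups. The androgen-induced LNCaP markers KLK3, KLK2 and TMPRSS2 were lower in ENZR and are described further on. Most defining markers of blood cells, endothelium and muscle were at or near 0, with MS4A1 and CKM at 0 in 25 of 25 tumours, PECAM1 at 0 in 17 and PTPRC never above 0.0923 TPM.

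With limma across 17593 genes, 4681 genes (26.6%) passed an adjusted p of 0.05 (Benjamini-Hochberg), of which 3722 (21.2% of genes tested) were higher in ENZR and 959 (5.45%) were lower. With an absolute log2 difference of at least 1 required in addition, 117 genes (0.665%) were called higher and 144 (0.819%) lower, 261 genes (1.48%) in all. The balance between the directions rested on the scale. The median log2 difference over all genes was 0.16, and after each tumour was centred on its own median gene, 1178 genes (6.7%) passed as higher and 2076 (11.8%) as lower. On the deposited scale only 100 genes (0.584%) passed as higher and 431 (2.52%) as lower. Counts for gene lists are therefore given on the rescaled scale and, where they differ, after centring. Fold differences are on the log2(TPM + 1) scale, which understates the change of low genes.

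**Figure D1:**
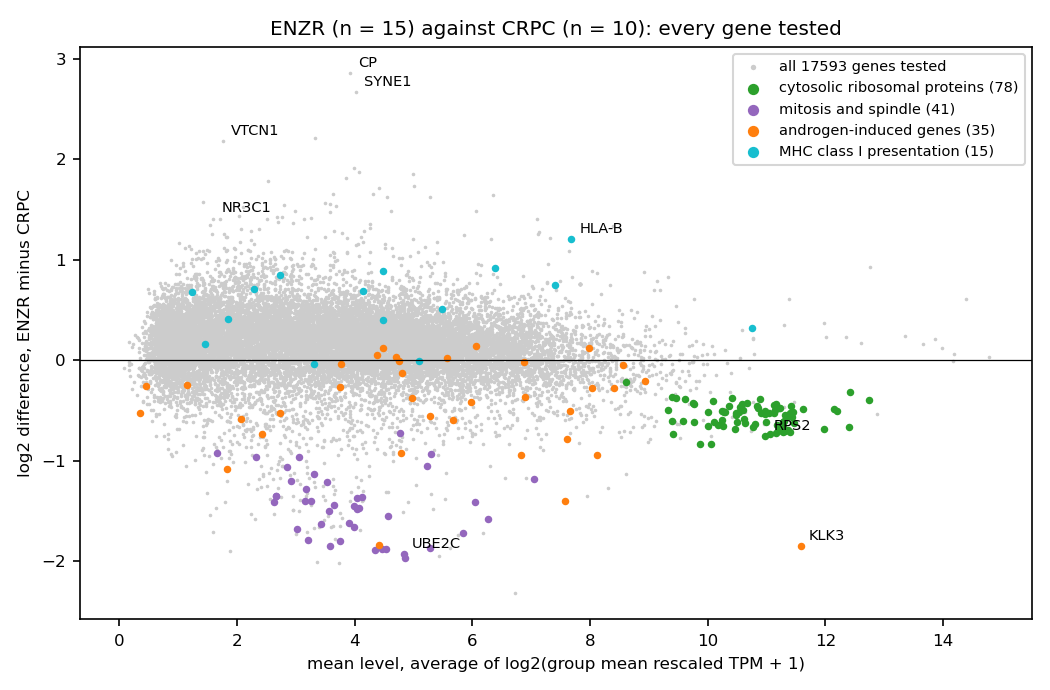
Each point is 1 of 17593 genes, with the average of the 2 groups' log2(mean rescaled TPM + 1) on the x axis and the log2 difference, ENZR minus CRPC, on the y axis. Coloured points are 4 gene lists: the 41 mitosis genes and the 78 cytosolic ribosomal protein genes lie below 0 without exception, while CP, SYNE1 and VTCN1 are among the highest points.

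Genes of mitosis and the spindle were lower in ENZR than in CRPC throughout: 41 of 41 tested members fell, with a median log2 difference of -1.44 against 0.16 over all genes, and 41 of 41 also fell after centring and on the deposited scale. Members ranged from -1.97 for PBK to -0.73 for ECT2. These genes are transcribed in a burst before cell division, and many of their promoters carry a cell-cycle homology region (CHR), read by the DREAM and MuvB complexes, near CCAAT boxes, read by the factor NF-Y. The promoters of 3 genes are shown because they hold both elements in genes with some of the lowest adjusted p-values of the list. They are the 250 bases before the RefSeq start in GRCh38.p14, on the plus strand: CCNB2 at chr15:59104896-59105145, HMMR at chr5:163460382-163460631 and CENPA at chr2:26785806-26786055. Capitals mark TTTGAA (the CHR) and CCAAT on either strand, so that CCAAT also appears as ATTGG.
CCNB2: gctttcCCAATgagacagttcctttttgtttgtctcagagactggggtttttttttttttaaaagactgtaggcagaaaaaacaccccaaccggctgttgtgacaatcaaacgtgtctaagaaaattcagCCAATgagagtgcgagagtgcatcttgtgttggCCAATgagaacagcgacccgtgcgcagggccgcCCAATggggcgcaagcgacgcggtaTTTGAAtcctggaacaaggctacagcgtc
HMMR: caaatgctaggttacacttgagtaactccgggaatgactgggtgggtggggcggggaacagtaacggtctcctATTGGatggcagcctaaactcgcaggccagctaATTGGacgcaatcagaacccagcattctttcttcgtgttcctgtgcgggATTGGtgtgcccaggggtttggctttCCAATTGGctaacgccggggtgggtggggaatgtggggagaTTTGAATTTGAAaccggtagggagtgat
CENPA: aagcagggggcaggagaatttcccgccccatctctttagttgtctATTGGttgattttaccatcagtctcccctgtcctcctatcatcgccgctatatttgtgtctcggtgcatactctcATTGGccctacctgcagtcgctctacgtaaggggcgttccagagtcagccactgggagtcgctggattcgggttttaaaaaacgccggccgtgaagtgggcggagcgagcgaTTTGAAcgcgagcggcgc
The CHR letters began 29 bases before the start in CCNB2, 22 and 28 bases before it in HMMR, which holds a tandem pair, and 18 bases before it in CENPA. Over the 34 of 41 mitosis genes with an entry in the RefSeq promoter table, 19 (55.9%) held TTTGAA, against 13.6% of 27305 promoters of the same length. CCAAT was held by 26 (76.5%) against 33%, and both by 17 (50%) against 4.85%. The letters of both motifs can overlap at their ends, and the CCAATTGG of HMMR counts once on each strand. Of 33 promoters of DNA replication genes, 1 held TTTGAA. A match is a description of the letters and no evidence of binding.

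CCNB1 and CCNB2 encode the B-type cyclins that bring cells into mitosis. CCNB1 ranged from 62.4 to 163 TPM (median 99.6) in CRPC and from 9.06 to 87.2 (median 41.2) in ENZR. CCNB2 ranged from 19.5 to 62.8 TPM (median 37.6) in CRPC and from 0.928 to 33.7 (median 9.99) in ENZR. Most ENZR tumours lay below every CRPC tumour for both genes, 13 of 15 for CCNB1 and 12 of 15 for CCNB2, and the upper ENZR tumours overlapped the CRPC range. The log2 difference was -1.41 (SE 0.24, adjusted p = 0.000301) for CCNB1 and -1.88 (SE 0.37, adjusted p = 0.000573) for CCNB2. UBE2C, the ubiquitin-conjugating enzyme of the anaphase-promoting complex, had CRPC values of 21.9 to 85 TPM (median 42.7) and ENZR values of 0.483 to 46.4 (median 13.4). Mice 75, 94 and 104 kept ENZR values inside the CRPC range for UBE2C and CCNB2, and the other 12 were below it. HMMR, a spindle-associated protein, was in the CRPC range only in mice 75 and 94. It fell by 1.89 on the log2 scale (SE 0.37, adjusted p = 0.000625).

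Other cell-cycle genes fell less deeply. Of 40 DNA replication genes, 28 fell and none rose (median -0.62), and 33 fell after centring. GINS1, a subunit of the replicative helicase, went from a CRPC median of 16.3 TPM (11.6 to 33.1) to an ENZR median of 5.29 (1.8 to 24.9), with 12 of 15 ENZR tumours below every CRPC tumour and a log2 difference of -1.29 (SE 0.24, adjusted p = 0.000472). MCM2 fell by 0.58 (SE 0.18, adjusted p = 0.0134), while MCM3, MCM7 and the polymerase subunits POLA1, POLD1, POLD3 and POLE were among the 12 that did not pass. Of 25 DNA repair genes 14 fell and 2 rose (median -0.52). Of 23 genes of G1 and the RB pathway 8 fell and 2 rose (median -0.22), among them CDK2 at -0.60 and E2F1 at -1.25. After centring, none of the DNA repair or G1 genes passed as higher, and 16 and 12 fell. MKI67, the usual marker of cycling cells, fell by 1.06 (SE 0.27, adjusted p = 0.00454), from a CRPC median of 9.37 TPM to an ENZR median of 3.1. In ENZS its median was 1.71 TPM, and the mitosis list had a median tumour level of 2.27 (log2 scale) in ENZS against 2.98 in ENZR and 4.54 in CRPC. In bulk tumours, fewer cycling cells and less RNA of these genes per cell cannot be told apart.

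The genes of the cytosolic ribosome were lower in ENZR as a whole: 78 of 78 tested members fell, with a median log2 difference of -0.53. All 78 also fell after centring, 76 fell without tumours of very low human total (5.3% of all genes lower), 71 with human total as a covariate (4.07% of all genes lower) and 37 on the deposited scale. These genes encode the structural proteins of the 40S and 60S subunits and are translated under the control of nutrient signalling. They made up 18.7% ± 3.2 of rescaled TPM in CRPC (SD, n = 10) and 13% ± 2.92 in ENZR (SD, n = 15), and 12 of 15 ENZR tumours lay below the lowest CRPC tumour. A share this large presses on the TPM of every other gene, so the scale was also set after leaving these genes out of the total, a choice made after seeing the data. The median of all genes was then 0.09, with 1965 genes (10.8%) higher and 1344 (7.42%) lower. RPS2 ranged from 2155 to 3397 TPM (median 2465) in CRPC and from 944 to 2355 (median 1567) in ENZR. RPL4 ranged from 2839 to 4298 TPM (median 3245) in CRPC and from 1275 to 3417 (median 2090.0) in ENZR. For both genes 14 of 15 ENZR tumours were below every CRPC tumour, and mouse 100 was the exception. The log2 difference was -0.76 (SE 0.13, adjusted p = 0.000301) for RPS2 and -0.69 (SE 0.12, adjusted p = 0.000379) for RPL4. RPS2P55 and RPL4P5, 2 of the 5 genes whose ENZR and CRPC ranges did not overlap at all (0.0284% of genes tested, with 3 or 0.0171% higher and 2 or 0.0114% lower), are processed copies of these genes, and reads of the parent and the copy could have been split between them, so their own levels are uncertain.

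Neighbouring groups moved less. NPM1, the nucleolar protein nucleophosmin, fell by 0.63 (SE 0.14, adjusted p = 0.00132), and FBL, the rRNA methyltransferase fibrillarin, fell by 0.60 (adjusted p = 0.00183). Of 34 ribosome biogenesis genes 7 fell and 2 rose, and after centring 18 fell and none rose. Of 73 mitochondrial ribosomal proteins 21 fell and 1 rose, and after centring 44 fell. Nuclear-encoded subunits of the respiratory chain fell in 11 of 76 cases, and in 34 after centring. Of 31 proteasome subunits 3 fell, and 9 after centring. For these 4 lists, whose medians lay between -0.17 and -0.03, the scale set much of the count. The deposited scale left 2, 0, 0 and 0 falling members.

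**Figure D2:**
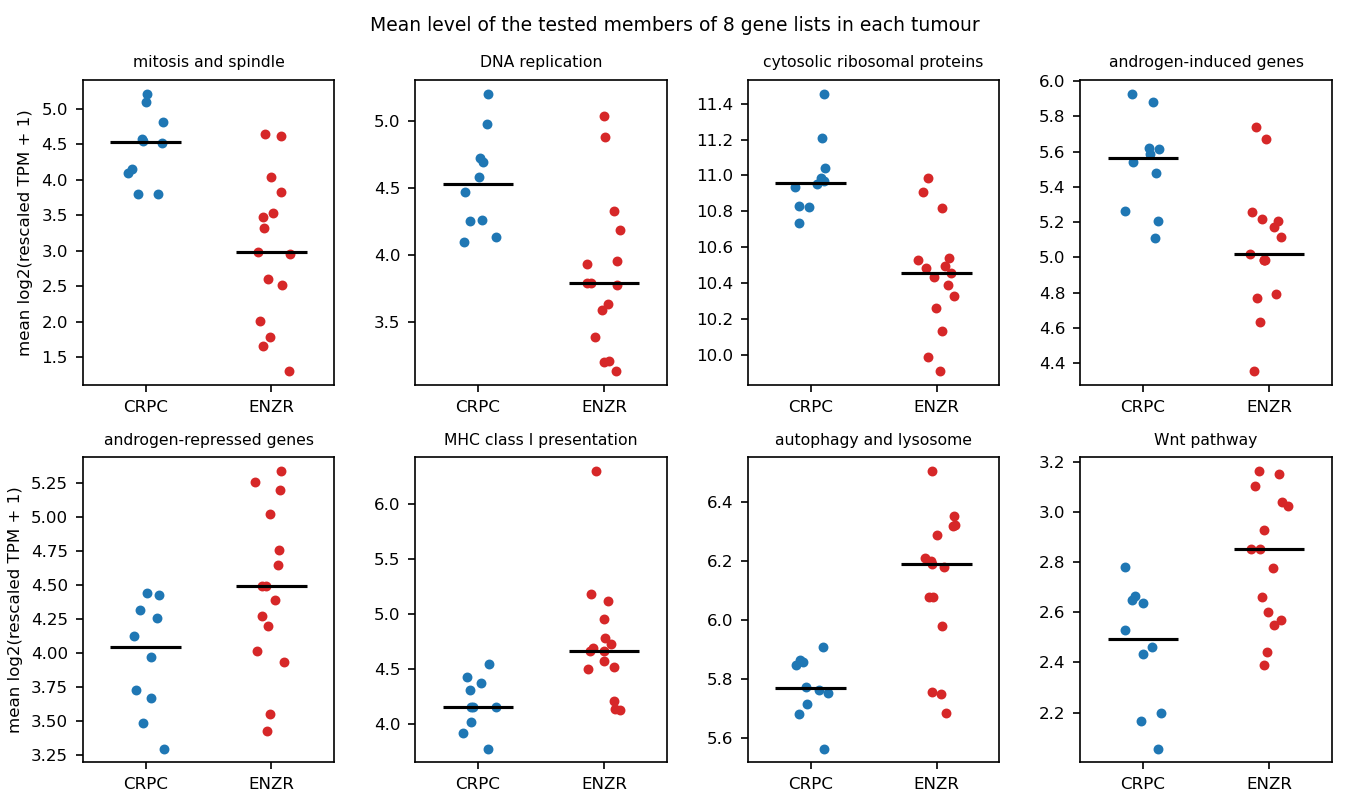
Each point is a tumour (10 CRPC, 15 ENZR), placed at the mean log2(rescaled TPM + 1) of the tested members of 1 of 8 gene lists, with a bar at the group median. For mitosis 11 of 15 ENZR tumours lie below every CRPC tumour, and for ribosomal proteins 12 of 15 do; for the lysosome list 12 of 15 lie above.

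The classical androgen-induced genes were lower in part. Of 35 tested members 12 fell, 0 rose and 23 did not pass, with a median log2 difference of -0.37, and after centring 17 fell. On the deposited scale 5 fell, and with human total as a covariate 7. The list held the 4 members KLK3, SLC45A3, KLK2 and PTGER4 with differences below -1, while KLK4, ACSL3, NDRG1, ELL2, ORM1 and SPDEF lay between -0.26 and 0.12 and did not pass. CENPN, which fell by 0.94, is also a centromere protein of dividing cells. KLK3 and KLK2 lie side by side on chromosome 19 and are secreted serine proteases of the prostate, and their promoters are shown because both hold the same androgen response element. The 250 bases before the RefSeq start are chr19:50854665-50854914 for KLK3 and chr19:50873189-50873438 for KLK2 in GRCh38.p14, plus strand, with the element in capitals: GAACA, then any 4 bases, then GTGC.
KLK3: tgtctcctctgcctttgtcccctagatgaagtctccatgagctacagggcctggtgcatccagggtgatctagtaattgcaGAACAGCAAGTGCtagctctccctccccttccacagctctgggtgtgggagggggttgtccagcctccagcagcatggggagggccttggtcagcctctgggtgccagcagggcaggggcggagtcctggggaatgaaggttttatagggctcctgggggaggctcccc
KLK2: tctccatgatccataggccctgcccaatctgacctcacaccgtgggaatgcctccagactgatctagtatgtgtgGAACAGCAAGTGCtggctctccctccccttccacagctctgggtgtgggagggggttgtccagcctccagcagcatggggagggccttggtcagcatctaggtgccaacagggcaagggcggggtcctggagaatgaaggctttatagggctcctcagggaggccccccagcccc
The element began 169 bases before the start in KLK3 and 175 bases before it in KLK2. Of 23 androgen-induced genes with an entry in the table, these 2 were the only ones to hold these letters on either strand in this window. The pattern is the site of these 2 genes with its middle bases left open, so both matches were fixed in advance. Its rate of 0.212% over 27305 promoters is therefore no test of enrichment in the list. The general form of the androgen response element was held by 0 of 23, against 0.33% of all promoters. The shorter AGAACA was held by 1 of 23 (4.35%) against 12.4% of all promoters.

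KLK3 (chr19:50854915-50860764) ranged from 2825 to 6828 TPM (median 4690) in CRPC and from 92.1 to 6704 (median 1231) in ENZR. In ENZR, 12 of 15 tumours were below every CRPC tumour, while mice 75, 94 and 104 lay inside the CRPC range, so the ENZR group spanned both ends of the scale. The log2 difference was -1.85 (SE 0.44, adjusted p = 0.00231), and it was -1.58 (adjusted p = 0.00301) without tumours of very low human total, among them mouse 87, which had the lowest KLK3 and the lowest human total. KLK3 passed under all 14 alternatives and with each of the 25 tumours left out. Harvest was timed by serum PSA, the product of KLK3, or by tumour size, and the PSA level that marked relapse differed between the arms. The KLK3 difference and this rule of sampling cannot be told apart. KLK2 ranged from 94.9 to 544 TPM (median 229.8) in CRPC and from 5.68 to 677 (median 53.1) in ENZR, with mouse 75 highest. It fell by 1.40 (SE 0.48, adjusted p = 0.0266). This call was lost without CRPC mouse 81 (adjusted p = 0.0626).

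SLC45A3, the membrane protein prostein, ranged from 10.7 to 63.3 TPM (median 39) in CRPC and from 3.03 to 45.7 (median 7.29) in ENZR. It was below every CRPC tumour in 12 of 15 ENZR tumours and fell by 1.84 (SE 0.38, adjusted p = 0.000922). FKBP5, a chaperone of steroid receptors that both androgens and glucocorticoids induce, had medians of 29.9 TPM in CRPC (19.4 to 70.6) and 12.4 in ENZR (9.39 to 112), with 11 of 15 ENZR tumours below every CRPC tumour and 1 above. It fell by 0.92 (SE 0.28, adjusted p = 0.0137). TMPRSS2, the serine protease, fell by 0.78 (SE 0.27, adjusted p = 0.0263), a call lost when any 1 of CRPC mice 43, 78, 81 or 107 was left out (adjusted p up to 0.0647).

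FOXA1, HOXB13 and GATA2, factors that open chromatin at androgen-responsive sites or bind there, had differences of 0.17, -0.07 and 0.13 and did not pass. Of 14 genes of this transcriptional machinery 4 rose and 1 fell. The 4 that rose were GRHL2, an epithelial transcription factor, at 0.51, and the coactivators EP300 at 0.54, NCOA1 at 0.51 and NCOA3 at 0.33. NCOA1 lost its call without CRPC mouse 47 or 81 (adjusted p up to 0.0705). After centring GRHL2 and EP300 still passed as higher.

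NR3C1, the glucocorticoid receptor (chr5:143277931-143435512), was higher in most ENZR tumours. It ranged from 0.22 to 1.14 TPM (median 0.626) in CRPC and from 0.322 to 15.3 (median 4.32) in ENZR. In ENZR, 12 tumours were above every CRPC tumour, and mice 33, 75 and 104 lay inside the CRPC range. The log2 difference was 1.41 (SE 0.28, adjusted p = 0.000625), and it passed under all 14 alternatives. ENZS tumours had a median of 3.55 TPM, POST-CX tumours 0.598 and PRE-CX tumours 0.418. Of 15 tested genes of other steroid receptors and the glucocorticoid response, 4 rose, a share near the 21.2% of all genes, and 1, FKBP5, fell. After centring 2 rose and 1 fell, and on the deposited scale 1 rose and 1 fell. PER1, a clock gene with a glucocorticoid response element, rose by 0.89 (SE 0.23, adjusted p = 0.00516), PGR, the progesterone receptor, rose by 0.71 and ERRFI1, an inhibitor of ERBB receptors, rose by 0.41. The textbook glucocorticoid targets TSC22D3, SGK1, DUSP1, KLF9 and ZBTB16 had differences between -0.09 and 0.33 and did not pass.

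Genes that androgen represses moved in both directions. Of 17 tested members 5 rose, 1 fell and 11 did not pass, with a median log2 difference of 0.50, and after centring 3 rose and 2 fell. UGT2B15, which conjugates dihydrotestosterone to glucuronic acid, ranged from 2.96 to 29.2 TPM (median 12.7) in CRPC and from 2.09 to 177.6 (median 70.1) in ENZR. The ENZR group had 9 tumours above every CRPC tumour and 1 below. It rose by 1.73 (SE 0.56, adjusted p = 0.0201), but not on the deposited scale (adjusted p = 0.161). UGT2B17, a paralog with shared sequence, had a log2 difference of 1.64 that did not pass (adjusted p = 0.052) and passed without tumours of very low human total (adjusted p = 0.0252), and reads of the paralogs may have been split between them. DDC, DOPA decarboxylase, had medians of 208 TPM in CRPC (32.4 to 386) and 467.7 in ENZR (22.5 to 1368). It rose by 1.34 (SE 0.48, adjusted p = 0.0348), a call lost after centring (adjusted p = 0.0716), on the deposited scale (0.254) and without any of 6 single tumours, CRPC mice 81, 102 and 107 and ENZR mice 64, 98 and 105 (adjusted p up to 0.0978). IGFBP3, an IGF-binding protein, rose by 1.02, MET, the HGF receptor, by 0.86 and TIMP2, a metalloproteinase inhibitor, by 0.48. CHRNA2, a nicotinic receptor subunit, went against the name of its list. It fell by 1.06 (SE 0.22, adjusted p = 0.00106), with 13 of 15 ENZR tumours below every CRPC tumour. Of 13 genes of androgen synthesis and inactivation 4 rose and none fell, UGT2B15, AKR1C1, AKR1C3 and HSD17B3, the last 3 being reductases that act on steroids. After centring 2 rose and 2 fell.

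**Figure D3:**
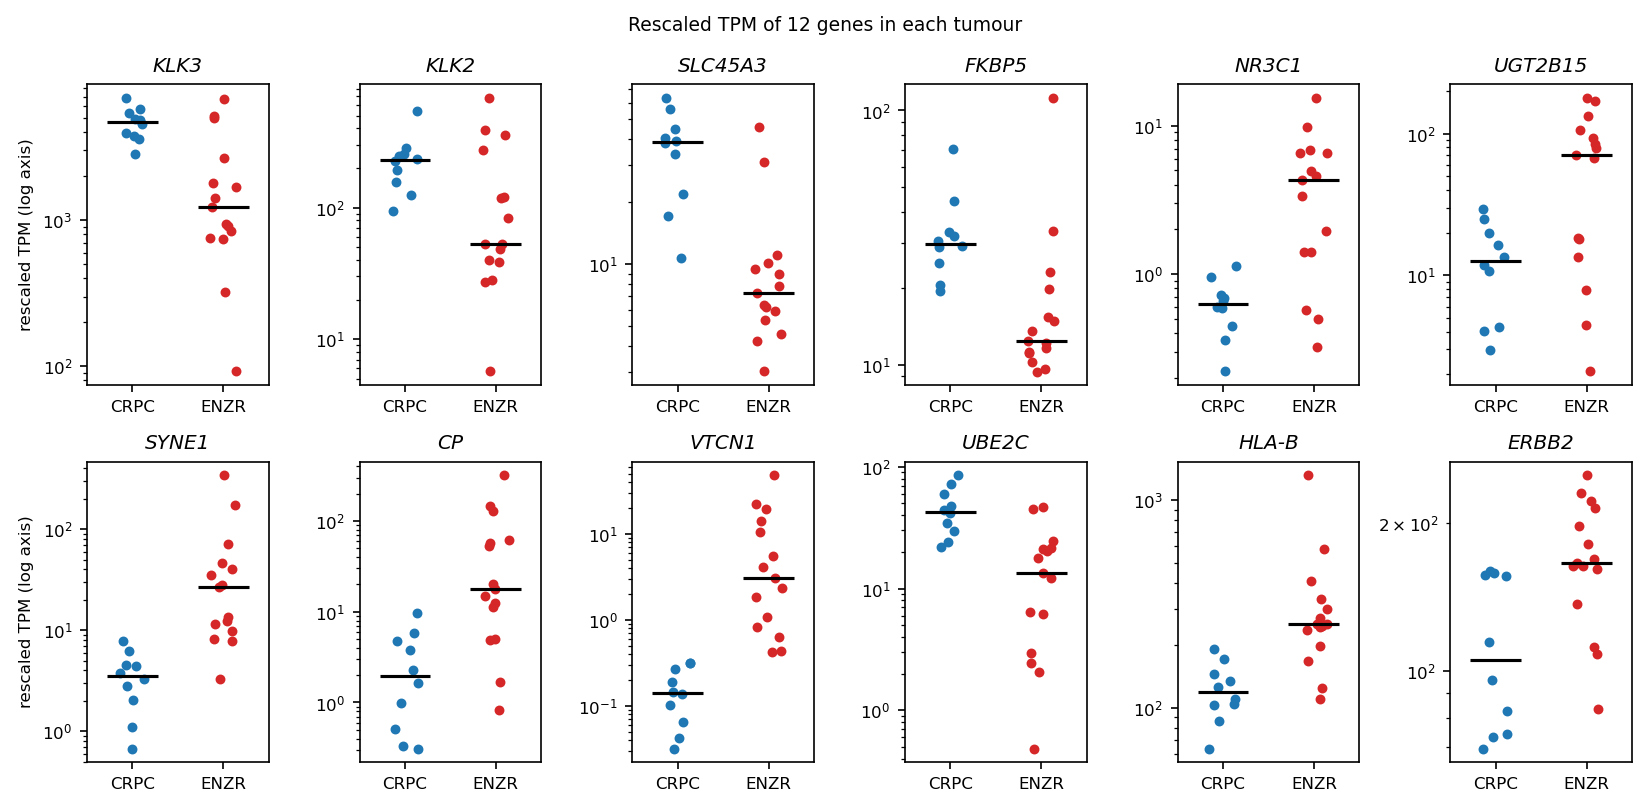
Rescaled TPM (log axis) of 12 genes in each of 10 CRPC and 15 ENZR tumours, with a bar at the group median. VTCN1 separates the groups in all 25 tumours on this scale, though not as deposited or after centring, whereas KLK3, UBE2C and NR3C1 each leave 3 ENZR tumours inside the CRPC range.

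The largest rises were in genes of varied function. SYNE1 (chr6:152121687-152637362), which encodes nesprin-1, a protein linking the nuclear envelope to actin, ranged from 0.67 to 7.78 TPM (median 3.54) in CRPC and from 3.29 to 339.9 (median 27) in ENZR. All ENZR tumours but mouse 75, 14 of 15, were above every CRPC tumour. The log2 difference was 2.67 (SE 0.52, adjusted p = 0.000587). CP (chr3:149162414-149221829), the copper-carrying ferroxidase ceruloplasmin, ranged from 0.309 to 9.61 TPM (median 1.94) in CRPC and from 0.832 to 317.6 (median 17.7) in ENZR. The 11 ENZR tumours above every CRPC tumour included mouse 87 as the highest, and the log2 difference was 2.86 (SE 0.69, adjusted p = 0.00283). It was 2.59 (adjusted p = 0.00284) without tumours of very low human total. VTCN1 (chr1:117143587-117210927), the immune checkpoint ligand B7-H4, ranged from 0.032 to 0.32 TPM (median 0.141) in CRPC and from 0.422 to 47.6 (median 3.07) in ENZR. On the rescaled scale every ENZR tumour was above every CRPC tumour, whereas the ranges overlapped on the deposited scale and after centring. The log2 difference was 2.18 (SE 0.42, adjusted p = 0.000511). All 3 genes passed under all 14 alternatives and with each of the 25 tumours left out. Their ENZS medians were 25.9 TPM for SYNE1, 24 for CP and 0.899 for VTCN1.

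The other genes among the 12 largest rises were SDCBP2, LCN2, TCIM, COL3A1, LDLRAD4, UGT2B15, NFKBIZ, APCDD1 and CSGALNACT1, with log2 differences from 1.63 to 2.21. LCN2, the siderophore-binding protein lipocalin 2, ranged from 0.149 to 8.48 TPM (median 0.931) in CRPC and from 0.166 to 989.7 (median 7.01) in ENZR. Mouse 87 held the highest value and the next was 25.9 TPM in mouse 98. The difference of 1.91 (SE 0.64, adjusted p = 0.0232) was 1.43 (adjusted p = 0.0184) without tumours of very low human total and did not pass with human total as a covariate (adjusted p = 0.0724). Mouse 87 was also the highest ENZR tumour for SDCBP2, TCIM, NFKBIZ and HLA-B. NFKBIZ, a nuclear IkB protein induced in inflammation, rose by 1.72 (SE 0.37, adjusted p = 0.00127). APCDD1, an inhibitor of Wnt signalling, rose by 1.65 (SE 0.38, adjusted p = 0.00211). CSGALNACT1, which starts chondroitin sulfate chains, rose by 1.63 (SE 0.37, adjusted p = 0.00171) and was above every CRPC tumour in 14 of 15. On the deposited scale 11 of the 12 largest rises passed, all but UGT2B15. NBPF11 and the unnamed transcript AC009318.1, the remaining genes with no overlap between groups, rose by 0.57 and 0.51, though both lost the call on the deposited scale, and NBPF11 belongs to a family of near-identical copies among which reads may be split.

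The 12 largest falls held 7 genes of cell division, PBK, RRM2, UBE2C, HMMR, BIRC5, CCNB2 and NUSAP1, and 5 others. GNAI1, an inhibitory G protein subunit, ranged from 37 to 719 TPM (median 156) in CRPC and from 1.65 to 203 (median 42.5) in ENZR, and 7 of 15 ENZR tumours were below every CRPC tumour. It fell by 2.31 (SE 0.68, adjusted p = 0.0113), the largest fall named here. RIPOR2, a regulator of cell polarity and migration, had medians of 85.6 TPM in CRPC (31.1 to 125.6) and 16.9 in ENZR (1.21 to 90.7) and fell by 1.87 (SE 0.38, adjusted p = 0.000757). The non-coding RNAs LINC00844 and GPC5-AS1 fell by 2.02 and 1.90, and COLCA1 fell by 2.01. All 12 passed on the deposited scale, after centring and in each of the other 12 alternatives. KRT14, a basal keratin, fell by 1.47 (SE 0.30, adjusted p = 0.00083) from a CRPC median of 3.7 TPM to an ENZR median of 0.338.

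Of 15 tested genes of antigen presentation by MHC class I, 7 rose, none fell and 8 did not pass, where 21.2% of all genes rose. The median log2 difference was 0.68, and 7 also rose after centring (6.7% of all genes), though only HLA-B did on the deposited scale. They included HLA-B, HLA-C, HLA-E, HLA-F, the loading factor TAPBP and the trimming peptidase ERAP1. HLA-B ranged from 63.3 to 192 TPM (median 118) in CRPC and from 109 to 1315 (median 253) in ENZR. Mice 75, 100 and 104 lay inside the CRPC range and the other 12 were above it. The difference was 1.20 (SE 0.27, adjusted p = 0.00166), and 1.04 (adjusted p = 0.000907) without tumours of very low human total. Reads of the similar HLA genes may be split between them. B2M, TAP1 and PSMB9 had differences of 0.32, 0.40 and 0.68 and did not pass. Immune markers moved with the list at the ends of the ENZR range. The list's mean log2 level was highest in mice 87 (6.3), 98 (5.19) and 103 (5.12), whose 14 immune and blood markers summed to 65.6, 14.2 and 7.81 TPM. It was lowest among ENZR in mice 104 (4.13), 75 (4.14) and 100 (4.21), whose markers summed to 1.34, 1.18 and 0.885 TPM. Other ENZR tumours broke this order. Mouse 23 had a list level of 4.5 with a marker sum of 11.35 TPM, and mouse 21 a level of 4.95 with a sum of 1.36 TPM. The part of immune markers in the result was not tested. Interferon-stimulated genes rose in 6 of 31 cases, below the 21.2% of all genes, and fell in 1, OAS3 (median 0.29). After centring 3 rose and 1 fell, and none passed as deposited. IRF1 rose by 0.88, MX1 by 0.70 and STAT2 by 0.53, while ISG15, IFI27 and IFITM3 lay between -0.08 and 0.06.

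Lysosome and autophagy genes rose in 14 of 27 cases with none falling (median 0.39), and in 9 after centring, but in none on the deposited scale. HEXA, a lysosomal hexosaminidase subunit, went from 45.3 to 72 TPM (median 63.2) in CRPC to 53.3 to 128 (median 97.2) in ENZR. Mice 75, 100 and 104 lay inside the CRPC range and the other 12 ENZR tumours were above it, with a difference of 0.58 (SE 0.11, adjusted p = 0.000597). CTSL and CTSB, further lysosomal hydrolases, rose by 0.45 and 0.56. TFE3, a transcription factor of lysosome genes, rose by 0.39, while TFEB, its relative, had a difference of 0.09 and did not pass.

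Most genes of 3 growth-factor routes, ERBB, Wnt and TGF-beta, did not pass. ERBB2, the receptor HER2, ranged from 69.3 to 159 TPM (median 105) in CRPC and from 83.6 to 249.8 (median 165.8) in ENZR, and 11 of 15 ENZR tumours were above every CRPC tumour. It rose by 0.60 (SE 0.18, adjusted p = 0.0121), but not on the deposited scale (adjusted p = 0.62). EGFR (0.41, adjusted p = 0.0605) and ERBB3 (0.25, adjusted p = 0.0878) did not pass, and ERBB3 turned to -0.02 on the deposited scale. Without tumours of very low human total both passed, EGFR with an adjusted p of 0.046 and ERBB3 with one of 0.0229. Of 11 ERBB receptors and ligands 3 rose, a share near the 21.2% of all genes, and 1 did after centring, where 6.7% of all genes rose. Of 23 Wnt genes 10 rose (median 0.35), and 4 rose and 1 fell after centring. FZD7, a Wnt receptor, had medians of 1.55 TPM in CRPC and 3.02 in ENZR and rose by 0.61 (SE 0.12, adjusted p = 0.000796), with 13 of 15 ENZR tumours above every CRPC tumour. ROR2, a co-receptor of non-canonical Wnt ligands, rose by 1.06 and LEF1 and AXIN2, nuclear effector and feedback inhibitor of the canonical branch, by 0.84 and 0.44. Of 21 TGF-beta and BMP genes 7 rose, and 4 after centring, with TGFB3 at 0.90, ID2 at 1.06 and SMAD3 at 0.69. As deposited, 1 Wnt gene, ROR2, and no ERBB or TGF-beta gene passed.

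**Figure D4:**
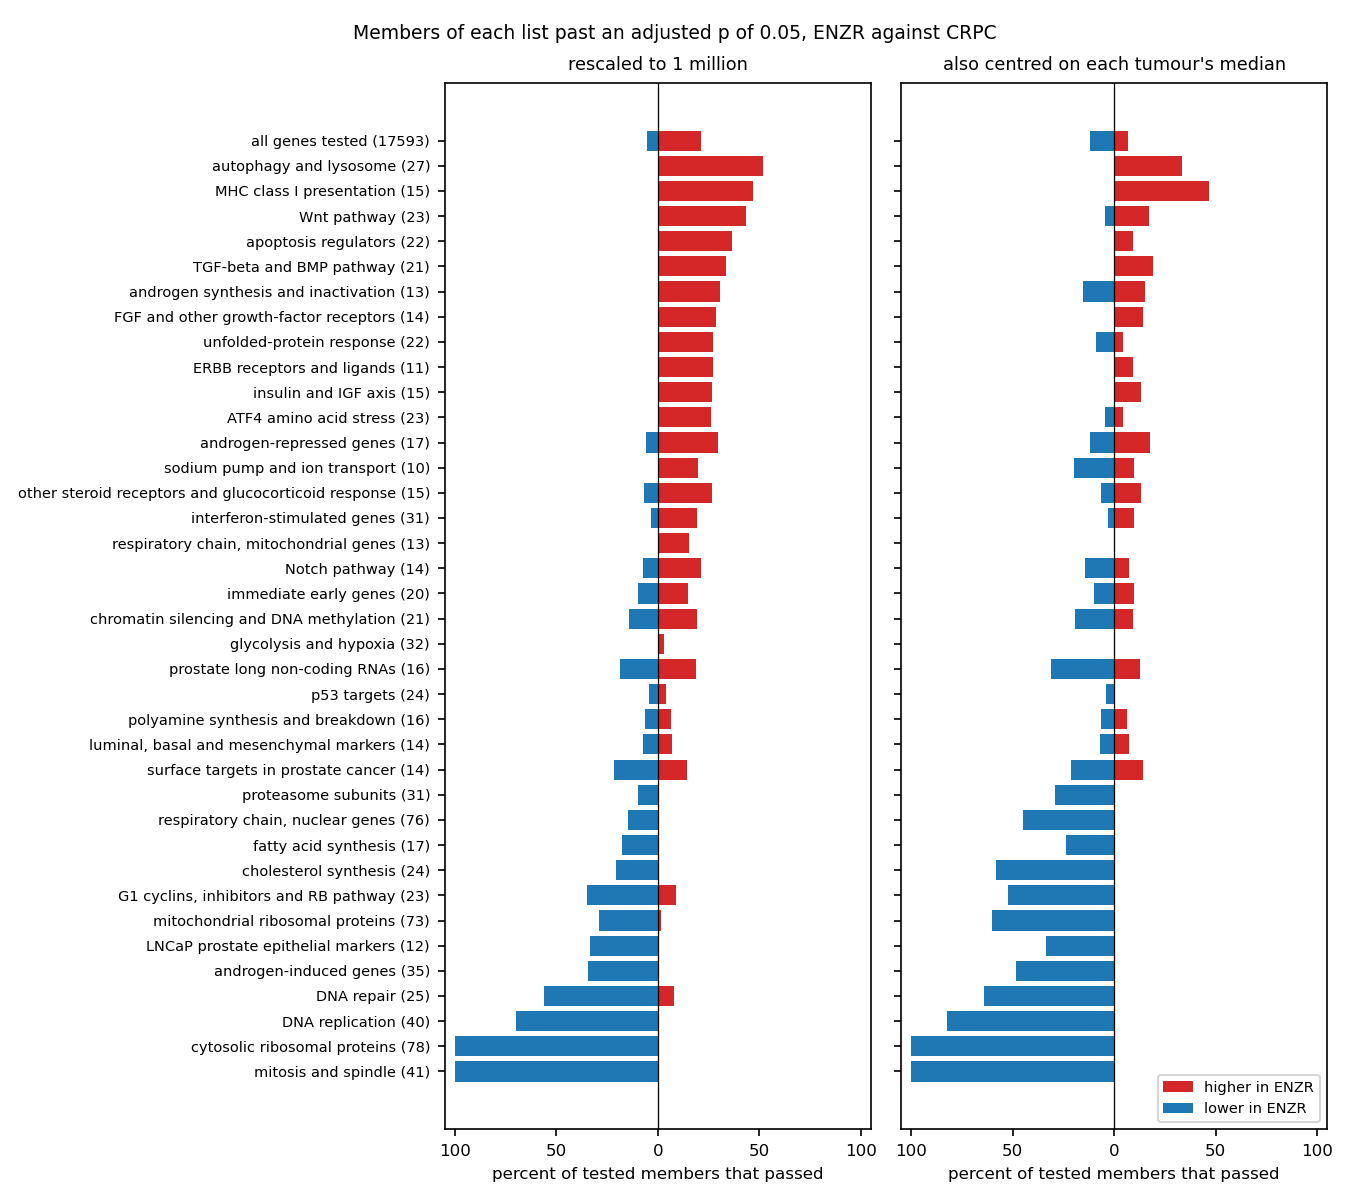
Bars give the percent of the tested members of each list (number in brackets, most lists with at least 10) that passed an adjusted p of 0.05 as higher (right, red) or lower (left, blue) in ENZR, on the rescaled scale and after centring. Mitosis and ribosomal protein genes reach 100% lower in both panels, while most rising lists shrink toward the bar for all 17593 genes after centring.

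Neuroendocrine markers were mostly too low to test. Of 25 such genes 7 were expressed enough to be tested, and CPE and DDC rose. CHGA, chromogranin A, had a median of 0 TPM in both groups and never exceeded 0.494 TPM. SYP, synaptophysin, had medians of 1.49 TPM in CRPC and 2.03 in ENZR and a difference of 0.23 that did not pass (adjusted p = 0.0535), and ENO2 one of 0.43 (adjusted p = 0.321). The collagen COL3A1 rose by 1.82 (SE 0.41, adjusted p = 0.00179), fibronectin FN1 by 1.41 (SE 0.38, adjusted p = 0.00668) and the collagen COL1A1 by 1.02 (SE 0.22, adjusted p = 0.00136). COL3A1 ranged from 1.3 to 9.85 TPM (median 5.88) in CRPC and from 3.19 to 60 (median 29) in ENZR, and mice 75, 94 and 100 lay inside the CRPC range. Collagens are fibroblast genes as well, and of 12 fibroblast markers 5 were tested, 3 rose (COL1A1, COL3A1 and COL5A1) and DCN and LUM had differences of -0.82 and -0.88 that did not pass. The summed level of the 12 markers was 9.94 to 99.5 TPM (median 24.5) in CRPC and 11.8 to 82.1 (median 56.8) in ENZR. POSTN was at 0 in 24 of 25 tumours, FAP in 21 and THY1 in 20. The 14 immune and blood markers summed to 0.711 to 4.79 TPM (median 1.24) in CRPC and 0.885 to 65.6 (median 2.64) in ENZR, highest in mouse 87, and CD68 rose by 1.10, a call that 13 of the 25 single-tumour omissions removed (adjusted p up to 0.0744). The part of other cell types and of the mouse host in these results was not tested.

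ENZR tumours varied more from each other than CRPC tumours in most genes. The standard deviation of log2 values was larger in ENZR for 12990 of 17593 genes (73.8%), and for 12186 (69.3%) without tumours of very low human total. The median standard deviation was 0.37 in ENZR and 0.30 in CRPC. Of 27 tested genes of a panel of androgen-response, growth and lineage genes, 24 had the larger mean absolute deviation from the group median in ENZR, but 0 passed a two-sided permutation test with 100000 resamples after Benjamini-Hochberg adjustment, and 7 had an unadjusted p under 0.05. NR3C1 had the lowest p, with a mean absolute deviation of 0.90 in ENZR and 0.17 in CRPC on the log2 scale (permutation p = 0.00297, adjusted p = 0.0802). KLK3 had deviations of 1.15 and 0.29 (permutation p = 0.0116, adjusted p = 0.151). NR3C1 passed on the deposited scale (adjusted p = 0.0354).

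Within ENZR, tumours with more KLK3 tended to have more MKI67. On the rescaled scale this passed for Pearson's r and, after adjustment, not for Spearman's rho. Over the 15 ENZR tumours Pearson's r was 0.67 (permutation p = 0.00577, adjusted over the 2 groups 0.0115) and Spearman's rho was 0.57 (permutation p = 0.0275, adjusted 0.055). Without the 2 tumours farthest from the KLK3 median, r was 0.53. Over the 10 CRPC tumours r was 0.25 (permutation p = 0.483) and rho was -0.06 (permutation p = 0.891), and r was -0.32 without the 2 tumours farthest from the KLK3 median. The difference between the groups was not tested, and KLK3 covered a much narrower range in CRPC. The part of the PSA rule of harvest in the relation of KLK3 to MKI67 was not tested. Without mouse 87 the ENZR values were r = 0.65 (permutation p = 0.0113, adjusted 0.0226) and rho = 0.54 (permutation p = 0.0479, adjusted 0.0959).

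**Figure D5:**
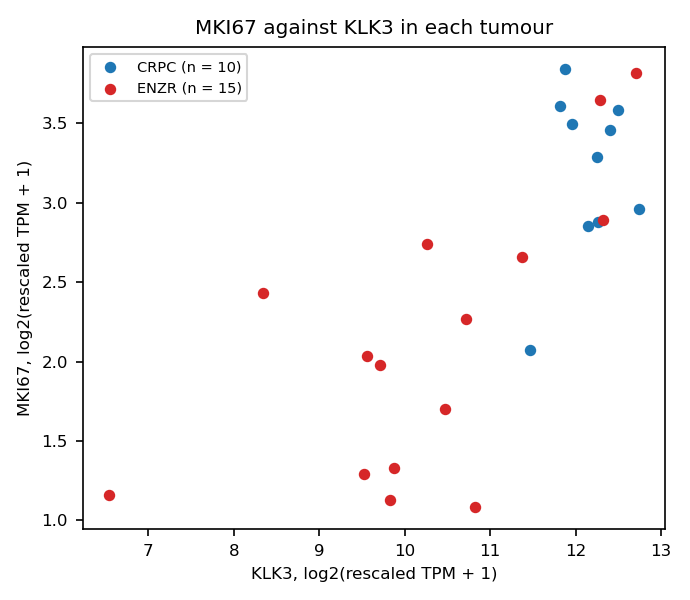
MKI67 against KLK3, both as log2(rescaled TPM + 1), in 15 ENZR and 10 CRPC tumours. The 3 ENZR tumours of mice 75, 94 and 104 lie among the CRPC tumours at high KLK3, and the remaining 12 extend to low KLK3 with MKI67 mostly below the CRPC points.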

How the data were processed

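RNA of 54 xenografts was sequenced as stranded, polyA-selected libraries. Per the labels and the study's methods, the authors used FastQC 0.11.9, Trim Galore 0.6.5, STAR 2.7.2b on a combined human GRCh38 and mouse GRCm38 genome and RSEM 1.3.3, and deposited TPM of human genes only, 1 column a tumour. Read counts are not part of the table, so depth and counting error are unknown.

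Here each tumour was rescaled to 1000000. Genes with at least 1 TPM in 8 tumours were kept. limma 3.58.1 (R 4.3.3) was fitted to log2(TPM + 1) of 54 tumours with 5 group means and eBayes with a trend, for ENZR minus CRPC. The script was tested on simulated data. Permutation tests used scipy 1.17.1 and numpy 2.4.6 with 100000 resamples. No 2 of the 25 tumours held identical values, so each counts as 1 replicate mouse.

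Named genes were a panel of 28, the 12 largest called rises and falls averaging 5 TPM or more in whichever group was higher, up to 4 passing members with the lowest adjusted p of each of 45 lists, and genes without overlap. Other list members were named after their values were seen. The panel, lists and tests were chosen with earlier results of these data known. Alternatives covered scale, pseudocount (0.1 and 5), filter, sample set, array weights, human total and each tumour left out. Gene positions and promoters are from RefSeq, GRCh38.p14. The genome sequence of another build was not used. Some genes of the lists are not reported here.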

Additional observations from a re-analysis of the deposited data

Results flagged for a closer look

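Among 51 panel and most changed genes and the human total, the highest or lowest of the 10 CRPC tumours stood apart from the rest in 6 cases by Dixon's criterion, where chance alone gives about 1 in 20 groups. The gap, as a share of the CRPC range on the log2 scale, was 0.490 for OPRK1 (11.5 TPM in mouse 81, next 38.5), 0.516 for AC009318.1 (1.12 TPM in mouse 81, next 1.72), 0.527 for SDCBP2 (16.7 TPM in mouse 81, next 3.89) and 0.533 for NFKBIZ (64.1 TPM in mouse 81, next 13). CRPC mouse 81 was thus the distant tumour in 4 of the 6. LOX, a collagen crosslinking enzyme, had a gap of 0.652 (3.88 TPM in mouse 78, next 0.83), and the human total, on the percent scale, one of 0.617 (77.1% in the lowest tumour, next 89.4%).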

How the results depend on the processing

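No paired analysis was possible because the replicate number is a mouse and no mouse gave tumours to both groups. Against 261 called genes, the fit with a pseudocount of 0.1 called 659, of which 252 were shared, and that with a pseudocount of 5 called 88, of which 86 were shared, and the other 12 alternatives gave 186 to 373. Leaving out single tumours gave 216 (without ENZR mouse 98) to 317 (without ENZR mouse 75) called genes. No called gene changed sign in any alternative. On the deposited scale 531 genes passed instead of 4681, and single omissions gave 3467 (without CRPC mouse 35) to 6000 (without ENZR mouse 75). The share of passing genes that were higher was 79.5%, against 36.2% after centring, 18.8% as deposited and 59.4% with ribosomal protein genes left out of the total. Of called genes, 44.8% were higher, against 17.9%, 12.4% and 32.3%. As a difference of medians the human total differed by -7.07 percentage points (permutation p = 0.0449). For spread, 1 panel gene passed on the deposited scale. Directions reversed for 2 genes that did not pass on the rescaled scale: ERBB3 was -0.02 as deposited (-0.0211), and ANGPT2, -0.13 on the rescaled scale, was 0.0022 with a pseudocount of 5, 0.50 with array weights and ranged from -0.28 to 0.11 over single omissions. Among 179 named genes tested, 100 lost their call in at least 1 alternative and 22 in at least 1 single omission. The 179 included genes with no call to lose, among them the 12 of 27 panel genes that did not pass. Read counts are not given, so counting error at low TPM cannot be set.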

Other observations

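On the rescaled scale, counts of higher genes stand against 21.2% of all genes and counts of lower genes against 5.45%, and after centring against 6.7% and 11.8%. Glycolysis and hypoxia genes rose in 1 of 32 cases, P4HA2, a collagen prolyl hydroxylase, at 0.56 (SE 0.21, adjusted p = 0.0404), which passed with 12 of the 25 single-tumour omissions, and the list median was 0.02. Cholesterol synthesis and uptake genes fell in 5 of 24 cases and in 14 after centring. Amino acid stress genes of the ATF4 route rose in 6 of 23 cases (median 0.41), after centring 1 rose and 1 fell, and SLC3A2, the heavy chain of amino acid transporters, rose by 0.83 (SE 0.19, adjusted p = 0.00175). Unfolded-protein response genes rose in 6 of 22 cases and after centring 1 rose and 2 fell, with ERN1, the sensor IRE1, at 0.69 (SE 0.17, adjusted p = 0.00331). Apoptosis regulators rose in 8 of 22 cases and in 2 after centring, among them BCL2L2, a survival protein, at 0.49 (SE 0.13, adjusted p = 0.00487).

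Prostate long non-coding RNAs split by gene. ARLNC1, an androgen-regulated RNA, had medians of 3.57 TPM in CRPC and 0.704 in ENZR and fell by 1.20 (SE 0.30, adjusted p = 0.00314), with 12 of 15 ENZR tumours below every CRPC tumour. GAS5, a host gene of small nucleolar RNAs, fell by 0.76 (SE 0.21, adjusted p = 0.00637). MALAT1, a nuclear RNA, rose by 0.88 (SE 0.19, adjusted p = 0.00145), but not on the deposited scale (adjusted p = 0.243). Among immediate early genes, FOSL2, a subunit of AP-1, rose by 0.82 (SE 0.19, adjusted p = 0.00201) and was above every CRPC tumour in 12 of 15 ENZR tumours. SRM, spermidine synthase, fell by 0.63 and SAT1, which acetylates polyamines for breakdown and export, rose by 0.70, each the single passing member of its direction among 16 polyamine genes. As deposited, SRM passed and SAT1 did not (adjusted p = 0.281).

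The remaining lists gave few passing genes on the rescaled scale. Fatty acid synthesis genes fell in 3 of 17 cases, among them the elongase ELOVL7 at -0.86, and 4 fell after centring. Mitochondrially encoded respiratory genes rose in 2 of 13, p53 targets rose in 1 and fell in 1 of 24, and metallothionein and metal transport genes rose in 1 of 9. None of these lists had a rising member after centring, and 1 p53 target and 1 metal gene fell. Chromatin silencing genes rose in 4 and fell in 3 of 21, and the 3 that fell, UHRF1, HELLS and SUV39H2, act in dividing cells. After centring 2 rose and 4 fell. Insulin and IGF genes rose in 4 of 15 and other growth-factor receptors and ligands in 4 of 14, with FGFR1 at 0.73. Both shares were near the 21.2% of all genes, and after centring 2 rose in each list. Notch genes rose in 3 and fell in 1 of 14, and sodium pump genes rose in 2 of 10. Centring left 1 rising and 2 falling members in each of these lists. Of 14 surface target genes 2 rose, ERBB2 and SLC44A4, and 3 fell, KLK2, TMEFF2 and TROAP, the last a spindle protein. Of 16 prostate non-coding RNAs 3 rose and 3 fell, and of 20 immediate early genes 3 rose and 2 fell. After centring 2 of these RNAs rose and 5 fell, and 2 immediate early genes rose and 2 fell. Luminal, basal and mesenchymal markers rose in 1 (FN1) and fell in 1 (KRT14) of 14. PLIN1, a fat cell marker, rose by 0.52, but did not pass after centring, and VWF, the 1 endothelial marker tested, did not pass.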
